A study of Mus musculus with 36 samples.

Results

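The genes described here are the 2 mouse cholinesterases, Bche and Ache, the collagen tail of acetylcholinesterase, Colq, and 4 muscarinic acetylcholine receptors, Chrm1, Chrm2, Chrm3 and Chrm5. They were chosen by symbol, matched to Ensembl identifiers, and make up 7 of the 52636 genes in the count table. Their transcripts were measured by RNA-seq in 3 kinds of cells sorted from skeletal muscle of juvenile S100β-GFP;NG2-dsRed mice, to compare the glia of the neuromuscular junction with other cells of the same muscles. In these mice the S100b promoter drives GFP and the promoter of Cspg4, the gene for NG2, drives dsRed. All 3 groups carry both transgenes and differ only in the fluorescence used for sorting. S100β-GFP+;NG2-dsRed+ cells, called perisynaptic Schwann cells (PSCs) in the study, gave 9 libraries. S100β-GFP+ cells without dsRed, called Schwann cells, gave 8, and NG2-dsRed+ cells without GFP, which the study describes as including pericytes and precursors, gave 10. Each library came from 1 mouse, with diaphragm, pectoralis, forelimb and hindlimb muscles pooled before sorting. The mice were about 15 to 21 or 22 days old by the study's text. The labels give upper ends that rise by 1 day from each label to the next, from 21 to 46 days, and then stay at 46. No age of a single library is given. No group was treated, and each group is a mixture of whatever cells passed its gate.

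Acetylcholine released by motor axons opens nicotinic receptors of the muscle fibre and also reaches the glia that cap the synapse, which answer through muscarinic and purinergic receptors with a rise of calcium. Acetylcholinesterase, encoded by Ache, ends the signal within the synaptic cleft, where the collagen ColQ ties it to the basal lamina. The membrane anchor PRiMA can instead hold it on the cell surface. Butyrylcholinesterase, encoded by Bche, is a related enzyme with a wider choice of substrates that also hydrolyses acetylcholine and is known from glia, liver and plasma. Of the muscarinic receptors, M1, M3 and M5 act through Gq and phospholipase C, and M2 and M4 through Gi.

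The enzymes are paralogs with the same catalytic site, which is shown because counts are assigned to each of them by sequence. The stretches below are coding bases from GENCODE M21 (GRCm38), 5′ to 3′, 27 bases each, with the codon of the catalytic serine in capitals.
Bche: atttttggagaaAGTgcaggggcagct
Ache: ctgtttggggagAGTgcgggtgcagcc
The Bche stretch lies in exon 2 of 4 of Bche-201 on the minus strand (chr3:73701399-73701425, codon 227 of 603), and the Ache stretch in exon 2 of 5 of Ache-201 on the plus strand (chr5:137290721-137290747, codon 234 of 614). They share 20 of 27 bases even at this conserved site. The receptor genes are compared in the same way at the aspartate, arginine and tyrosine codons (capitals) at the inner end of the third membrane helix, a hallmark of this receptor class.
Chrm1: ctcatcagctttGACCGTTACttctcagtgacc
Chrm2: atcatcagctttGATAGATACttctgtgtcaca
Chrm3: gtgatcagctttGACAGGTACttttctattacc
Chrm5: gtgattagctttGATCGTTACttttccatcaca
Any pair of these stretches shares 24 to 26 of 33 bases. They lie on chromosome 19 (8678284 to 8678316, plus strand), chromosome 6 (36523555 to 36523587, plus strand), chromosome 13 (9878489 to 9878521, minus strand) and chromosome 2 (112480371 to 112480403, minus strand). The study measured Bche by quantitative PCR as well, with the primer pair shown here because it gives the stretch of Bche that was amplified.
Forward primer: ctgcagtaattccgaaatcaaca
Reverse primer: gacccttccggtcttggttg
Both matched Bche-201 without a mismatch, and the other annotated Bche transcripts were not searched. The forward primer spans the junction of exons 1 and 2 and the reverse primer lies in the coding part of exon 2, for a product of 148 bases.

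Values below are counts per 1000000 counts (CPM), scaled by edgeR's TMM factors, and tests are edgeR's quasi-likelihood test with Benjamini-Hochberg adjustment over the 15330 genes that passed a filter on low counts, unless another test is named. Counts on genes per library ran from 5221655 to 9592875. Of the 7 genes, Bche, Ache and Chrm3 passed the filter, and Colq, Chrm1, Chrm2 and Chrm5 did not. PSCs held the markers of their label, with S100b at 255 ± 198 CPM (SD, n = 9) and Cspg4 at 689 ± 132 CPM. Summed markers of the Schwann cell lineage ran from 3070 to 4446 CPM in PSC libraries, from 89.6 to 494 CPM in S100β-GFP+ libraries and from 52.1 to 113 CPM in NG2-dsRed+ libraries. S100β-GFP+ libraries held myelin markers at levels like those of PSCs (1525 to 3615 CPM against 2522 to 3401 CPM, with 1 of 8 markers different), together with summed fibroblast markers of 21583 to 51219 CPM and macrophage and leukocyte markers of 1180 to 11024 CPM, so they are called S100β-GFP+ cells here. Their summed erythroid markers ran from 24.9 to 131265 CPM, highest in libraries 17 and 22 (131265 and 55247 CPM), then in libraries 3 and 14 (25046 and 21458 CPM). Their endothelial markers summed to 850, 2656 and 1412 CPM in libraries 14, 17 and 22 and to 132 to 203 CPM in the others. Pericyte and smooth muscle markers summed to 7199 to 15794 CPM in NG2-dsRed+ libraries, beside fibroblast markers of 2758 to 21198 CPM and endothelial markers of 1538 to 3551 CPM. The part of these other cell types in the values below was not tested. Chat, Slc18a3, Slc5a7 and Mnx1, which define motor neurons, had means under 1 CPM in each cell type. S100β-GFP+ library 22 stood apart, with a count on 38568 genes, and libraries 17 and 14 had 29103 and 25890, against 19669 to 23292 in the other S100β-GFP+ libraries. Olfactory receptor genes with a count numbered 1047, 686 and 412 in libraries 22, 17 and 14, against 95 to 187 in the other S100β-GFP+ libraries. The part of such scattered counts in the low values below was not tested. PSC library 18 had a count on 14616 genes, against 20203 to 22533 in the other PSC libraries. In bulk samples such as these, fewer cells of a type and less RNA per cell cannot be told apart.

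Bche was the main cholinesterase transcript of PSCs. Its lowest, median and highest values were 408, 962 and 1566 CPM in PSC libraries, 2.26, 4.96 and 16.6 CPM in S100β-GFP+ libraries and 2.43, 4.35 and 9.22 CPM in NG2-dsRed+ libraries. Every PSC library lay above every other library, and the lowest of them was library 18. The means were 1041 ± 372 CPM (SD, n = 9), 6.91 ± 5.01 CPM (n = 8) and 4.50 ± 1.99 CPM (n = 10). Bche was therefore higher in PSCs by 7.24 on the log2 scale against S100β-GFP+ cells (SE 0.42, adjusted p = 4.98e-14), a 151-fold difference. Against NG2-dsRed+ cells it was higher by 7.84 (SE 0.39, adjusted p = 1.45e-15), a 230-fold difference. These were the 7th and 15th largest increases among the 15330 genes tested in each comparison. Between S100β-GFP+ and NG2-dsRed+ cells the difference of 0.60 (SE 0.33, adjusted p = 0.164) did not pass the test, with an interval of 2 SE from -0.05 to 1.26. It was -0.12 (adjusted p = 0.816) without S100β-GFP+ libraries 14, 17 and 22, and 0.27 without library 22 alone. The 2 highest S100β-GFP+ values, 16.6 and 12.8 CPM, were those of libraries 22 and 17, and without these 3 libraries the mean was 4.23 ± 1.28 CPM (n = 5). Without PSC library 18 the differences of PSCs were 7.38 and 8.02. The PSC libraries were also those with the highest summed Schwann cell lineage markers. Within cell types the extremes of Bche and of this sum coincided in part. PSC library 23 had the highest Bche and the highest sum (4446 CPM). Library 18, with the lowest Bche of PSCs, had the second-highest sum (4362 CPM). S100β-GFP+ library 33, with the highest sum of its group (494 CPM), had Bche at 5.33 CPM. Library 22, with a sum of 183 CPM, had 16.6 CPM. NG2-dsRed+ library 2 had the highest Bche and sum of its group (9.22 and 113 CPM), and library 35 the lowest (2.43 and 52.1 CPM). The part of cell makeup in the difference between cell types was not tested. Bche overlaps no other annotated gene and spans chr3:73635808-73708415 on the minus strand (GRCm38).

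Ache followed another order, with its highest values in NG2-dsRed+ cells. The lowest, median and highest values were 2.92, 9.54 and 17.3 CPM in PSCs, 0.174, 1.05 and 2.14 CPM in the S100β-GFP+ group and 7.61, 13.7 and 20.8 CPM in NG2-dsRed+ cells. The S100β-GFP+ range lay below both others, which overlapped each other. The means were 8.91 ± 3.92 CPM (SD, n = 9), 1.16 ± 0.734 CPM (n = 8) and 13.5 ± 4.41 CPM (n = 10). Ache was higher in PSCs than in the S100β-GFP+ cells by 2.93 on the log2 scale (SE 0.37, adjusted p = 1.02e-07), or 7.63-fold. It was lower in S100β-GFP+ than in NG2-dsRed+ cells, with a log2 difference of -3.53 (SE 0.37, adjusted p = 7.71e-09), or 11.6-fold, which was the 65th largest decrease of the 15330 genes. The S100β-GFP+ group had 55 counts of Ache in all, and without libraries 14, 17 and 22 the differences were larger, at 3.52 and -4.10. PSCs against NG2-dsRed+ cells gave -0.60 (SE 0.30, adjusted p = 0.105), with an interval from -1.20 to 0.00, which did not pass the test. The call depended on 1 library and on the method. PSC library 18 held the highest PSC value, and without it the difference was -0.70 (adjusted p = 0.0427). limma-voom with sample quality weights gave -1.0 (adjusted p = 0.000926). Summed markers of skeletal muscle fibres, which also make acetylcholinesterase, ran from 220 to 1801 CPM in PSCs with the highest sum in library 18, from 195 to 691 CPM in the S100β-GFP+ group and from 177 to 768 CPM in NG2-dsRed+ cells, and their part in the Ache values was not tested. Ache (chr5:137287519-137294466, plus strand) overlaps a microRNA gene on its strand and a lincRNA gene on the other, of which the first had 12, 2 and 45 counts in PSCs, in S100β-GFP+ and in NG2-dsRed+ cells and the second had 0.

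**Figure D1:**
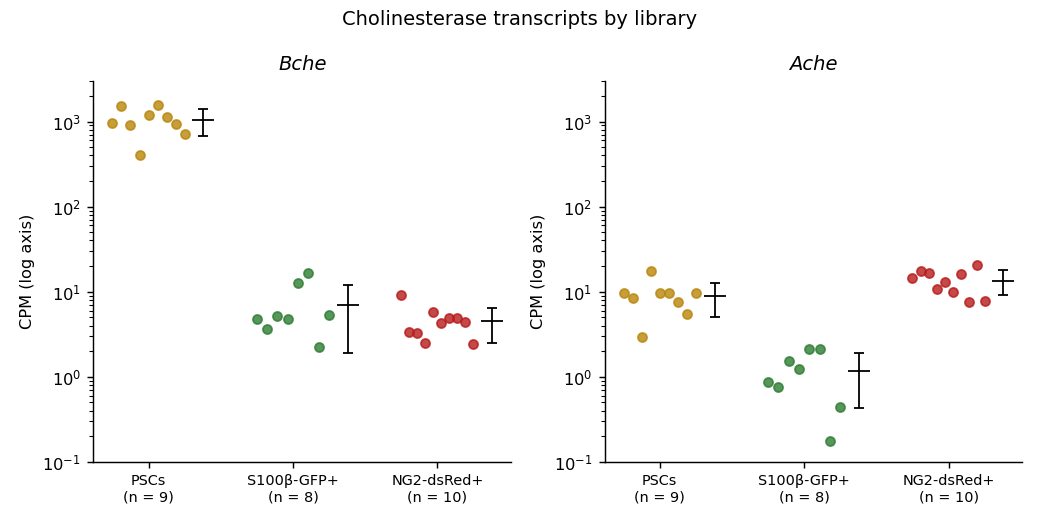
Bche (left) and Ache (right) in CPM on a log axis, 1 point per library, for PSCs (n = 9), S100β-GFP+ cells (n = 8) and NG2-dsRed+ cells (n = 10), with the mean and SD beside each group. Bche lies at 408 to 1566 CPM in PSCs and at no more than 16.6 CPM elsewhere, while Ache is lowest in S100β-GFP+ cells (up to 2.14 CPM) and reaches 20.8 CPM in NG2-dsRed+ cells.

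Levels of different genes were set side by side only per length, as RPKM (CPM per kilobase of exon). In PSCs Bche stood at 154 ± 55.2 RPKM (SD, n = 9), rank 213 of the 31410 genes with a count in that cell type, and Ache at 1.93 ± 0.849 RPKM, rank 10081. The ratio of Bche to Ache per length was 101 in the median PSC library, with a range from 16.1 in library 18 to 217. In S100β-GFP+ cells it was 3.94, with a range from 2.31 to 8.91, on levels of 1.03 ± 0.744 and 0.251 ± 0.159 RPKM and on as few as 1 count of Ache per library. In NG2-dsRed+ cells it was 0.211, with a range from 0.129 to 0.442, on 0.668 ± 0.295 and 2.91 ± 0.954 RPKM. The 3 ranges of the ratio did not overlap, so that Bche exceeded Ache in each library of PSCs and S100β-GFP+ cells and Ache exceeded Bche in each NG2-dsRed+ library. The ratio was looked at after the values were seen and was not tested.

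**Figure D2:**
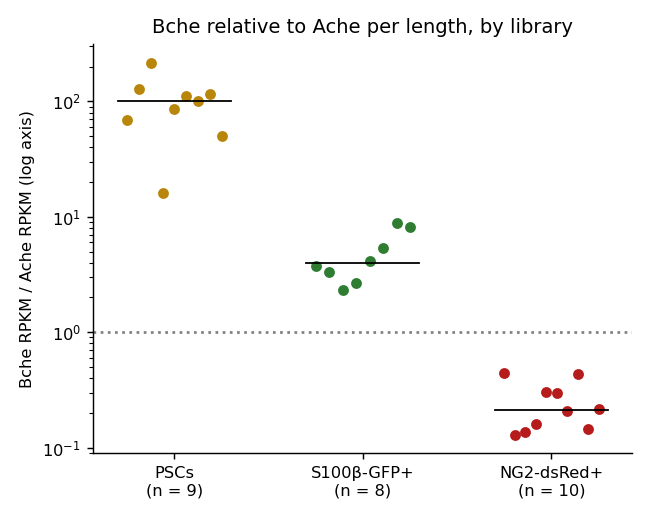
Ratio of Bche to Ache in RPKM on a log axis, 1 point per library, with the median of each cell type as a line and a dotted line at a ratio of 1. PSCs have a median of 101, the S100β-GFP+ group one of 3.94 and the NG2-dsRed+ group one of 0.211, and the groups do not overlap.

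Colq, the collagen that anchors acetylcholinesterase in the synaptic basal lamina, was close to the limit of detection. It had 53 counts in 7 of 9 PSC libraries (0.641 ± 0.501 CPM), 17 counts in 5 of 8 S100β-GFP+ libraries (0.345 ± 0.518 CPM) and 13 counts in 4 of 10 NG2-dsRed+ libraries (0.181 ± 0.27 CPM). Values of 0 occurred in each cell type, and 9 of the 17 S100β-GFP+ counts came from library 22. The 4 genes under the filter were compared with an exact permutation test of the difference of mean CPM, two-sided and unadjusted, in 12 comparisons, and in an edgeR fit of all genes with a count. For Colq the exact test gave p = 0.0192 for PSCs against NG2-dsRed+ cells, and the fit without the filter gave a log2 difference of 1.70 with an adjusted p of 0.211, so the difference did not hold after adjustment. The exact p was 0.251 for PSCs against S100β-GFP+ cells, and 0.442 for S100β-GFP+ against NG2-dsRed+ cells. Colq (chr14:31523082-31591343, minus strand) lies in the same place and on the same strand as a protein-coding gene model that is not in the table.

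Prima1, which encodes the membrane anchor of cholinesterases and is not one of the 7 genes, was much higher in PSCs than in the other cell types. Its PSC values had a lowest, median and highest of 53.9, 106 and 296 CPM, while no S100β-GFP+ library exceeded 3.07 CPM and no NG2-dsRed+ library 0.876 CPM. Every PSC library lay above every other, as for Bche. The log2 difference was 6.67 (SE 0.43, adjusted p = 2.83e-13) against S100β-GFP+ cells and 8.14 (SE 0.43, adjusted p = 3.41e-15) against NG2-dsRed+ cells, the 18th and 10th largest increases among all genes tested. PSCs thus held transcripts of Bche and of Prima1 far above both other cell types, and those of Colq near 0. No level per length was computed for Prima1, so it is not ranked against the other genes.

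Chrm3, the M3 receptor, was the muscarinic receptor gene with the most counts in each cell type, and it did not differ between them beyond the spread of the libraries. In PSCs it had 2 ranges with a gap between them. Libraries 4, 12, 18, 20 and 34 had 11.4, 7.51, 23.0, 8.13 and 10.6 CPM, and libraries 6, 23, 31 and 36 had 0.302, 0.939, 0.429 and 0.316 CPM. The lowest, median and highest values were 0.581, 4.43 and 8.03 CPM in the S100β-GFP+ group and 1.93, 8.23 and 21.3 CPM in NG2-dsRed+ cells, so the upper PSC range lay within or above that of the other cell types. The 4 low PSC libraries lay below each NG2-dsRed+ library. The log2 differences were 0.49 for PSCs against S100β-GFP+ cells (SE 0.67, adjusted p = 0.579), -0.37 for PSCs against NG2-dsRed+ cells (SE 0.62, adjusted p = 0.669) and -0.85 for S100β-GFP+ against NG2-dsRed+ cells (SE 0.66, adjusted p = 0.352). With intervals from -0.85 to 1.82, from -1.61 to 0.88 and from -2.17 to 0.46, a 2-fold difference in at least 1 direction lay within each of them. Without PSC library 18 the first difference was 0.09. Of the low PSC libraries, 3 had the largest combined shares of Lars2, Gm23935 and Gm15564 among all counts (31.5%, 36.6% and 31.6% in libraries 6, 23 and 31), whereas library 36 had the smallest (3.64%). The low and high libraries did not separate by summed Schwann cell lineage markers (3278 to 4446 CPM and 3070 to 4362 CPM). S100b, the gene behind the sorting reporter, was at 57.0, 75.5 and 67.8 CPM in libraries 6, 23 and 31 and at 139 to 515 CPM in the 5 high libraries, but at 566 CPM in library 36. In NG2-dsRed+ cells the highest Chrm3 values, 21.3, 14.9 and 14.2 CPM, were those of libraries 26, 28 and 35, the 3 in which summed fibroblast markers (12189, 21198 and 16262 CPM) exceeded summed pericyte markers (9799, 7842 and 7199 CPM). The part of these in the Chrm3 values was not tested. Chrm3 (chr13:9875486-10360847, minus strand) overlaps 6 other gene models, 4 of them on its own strand. Since no source used here says whether counting used strand, its counts are less certain than those of Bche.

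Chrm1, the M1 receptor, had its highest mean in PSCs, at a low level. The lowest, median and highest values were 0.778, 1.67 and 4.32 CPM in PSCs, 0, 0.681 and 3.95 CPM in the S100β-GFP+ group and 0, 0.139 and 0.970 CPM in NG2-dsRed+ cells. The ranges overlapped, with counts in all 9 PSC libraries (171 in total), in 7 of 8 S100β-GFP+ libraries (56) and in 6 of 10 NG2-dsRed+ libraries (25). Chrm1 was higher in PSCs than in NG2-dsRed+ cells by 1.77 CPM (exact permutation test, p = 0.000217), and the edgeR fit without the filter gave a log2 difference of 2.47 with an adjusted p of 0.00918. PSCs against S100β-GFP+ cells gave a difference of 1.00 CPM (exact p = 0.152), and this turned on S100β-GFP+ library 22, which held 24 of the 56 counts. Without it the difference was 1.40 CPM (exact p = 0.0317), and without libraries 14, 17 and 22 it was 1.34 CPM (exact p = 0.0754). S100β-GFP+ against NG2-dsRed+ cells gave 0.764 CPM (exact p = 0.0844), or 0.361 CPM (exact p = 0.216) without library 22. Leaving out library 1, 14 or 33 instead gave 0.905, 0.900 and 0.926 CPM, with exact p between 0.0342 and 0.0445.

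Chrm2, the M2 receptor, was the one gene of the 7 with its highest mean in S100β-GFP+ cells. Its values there had a lowest, median and highest of 0.435, 0.680 and 5.92 CPM, with 86 counts over 8 of 8 libraries. In PSCs 12 counts fell in 3 of 9 libraries, 8 of them in library 20, and in NG2-dsRed+ cells 12 counts fell in 6 of 10 libraries. Libraries 22, 27 and 17 gave the highest S100β-GFP+ values (5.92, 3.31 and 3.07 CPM), and the others lay between 0.435 and 0.831 CPM, close to the highest values of PSCs and NG2-dsRed+ cells (0.765 and 0.634 CPM). Chrm2 was lower in PSCs than in the S100β-GFP+ cells, with a difference of -1.74 CPM (exact permutation test, p = 0.000576) and a log2 difference of -3.47 (adjusted p = 0.00305) in the edgeR fit without the filter. It was higher in S100β-GFP+ than in NG2-dsRed+ cells by 1.70 CPM (exact p = 0.000343), with a log2 difference of 3.19 (adjusted p = 0.00714). Without library 22 these were -1.17 CPM (exact p = 0.00122) and 1.12 CPM (exact p = 0.000771), and without libraries 14, 17 and 22 they were -0.968 CPM (exact p = 0.005) and 0.924 CPM (exact p = 0.00333). PSCs and NG2-dsRed+ cells differed by -0.0439 CPM (exact p = 0.679), on 12 counts each. Over all genes in the fit without the filter, 12649 of 44705 were lower in PSCs than in the S100β-GFP+ cells. In the same fit 8194 were higher in S100β-GFP+ than in NG2-dsRed+ cells, so such a call was common there. The S100β-GFP+ libraries also held the fibroblast and macrophage markers given above. Libraries 22 and 17 were also those with a count on the most genes and on the most olfactory receptor genes. The part of either in the Chrm2 counts was not tested.

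Chrm5, the M5 receptor, was not detectable above a few counts. It had 2 counts in PSCs, 2 in S100β-GFP+ cells, both in library 22, and 5 in NG2-dsRed+ cells, 4 of them in library 30. A count of 0 still allows a mean of up to 3 counts over a cell type. PSCs and S100β-GFP+ cells lay under that floor and NG2-dsRed+ cells passed it through library 30, so no fold change is given. The exact permutation tests gave p = 0.876, 0.667 and 0.739. The gene is a single exon of 1599 bases in the annotation (chr2:112479171-112480769, minus strand). Chrm4, the remaining muscarinic receptor gene, had 4, 18 and 6 counts in PSCs, in S100β-GFP+ and in NG2-dsRed+ cells and was not tested.

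**Figure D3:**
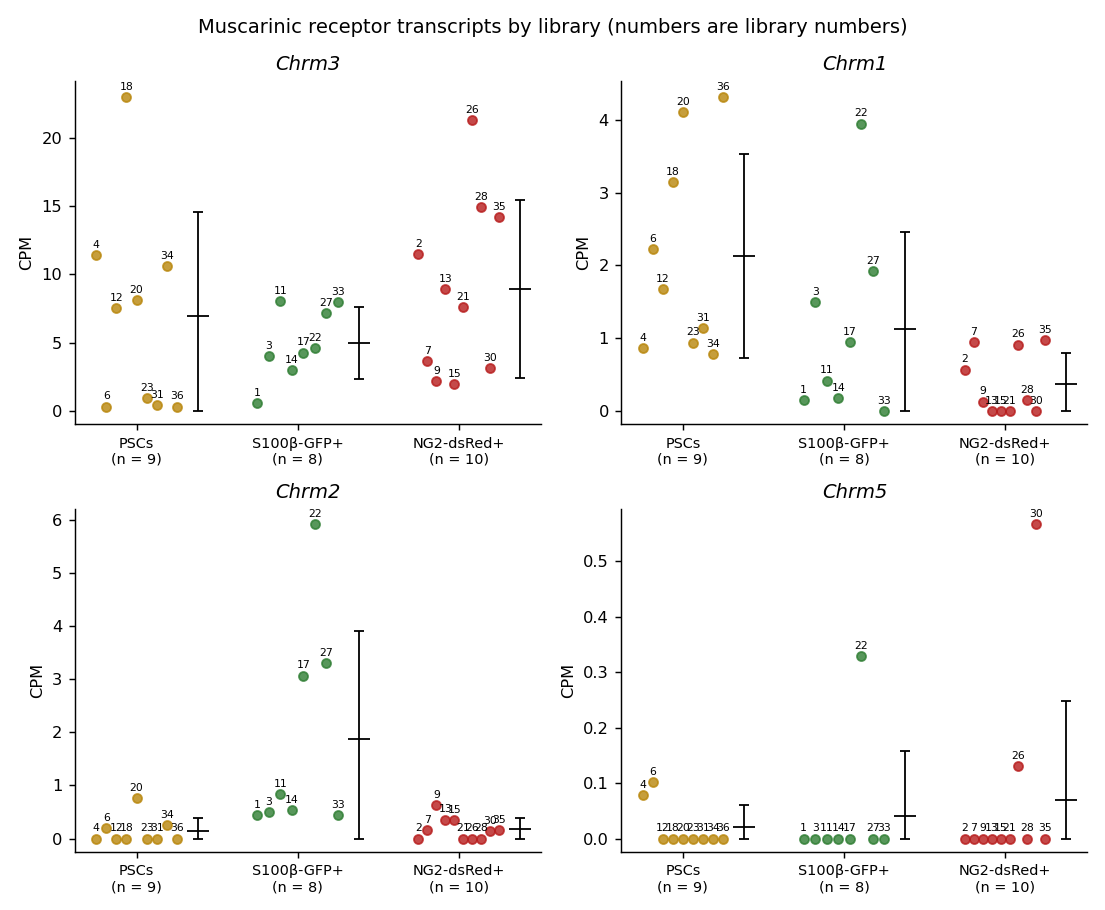
Chrm3, Chrm1, Chrm2 and Chrm5 in CPM on linear axes that differ between panels, 1 point per library with its library number, for PSCs (n = 9), S100β-GFP+ cells (n = 8) and NG2-dsRed+ cells (n = 10). Bars give the mean and SD, with the lower end stopped at 0. Chrm3 in PSCs falls into values of 7.51 to 23.0 CPM and of 0.302 to 0.939 CPM, and library 22 is the highest S100β-GFP+ library for Chrm1 (3.95 CPM) and Chrm2 (5.92 CPM).

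Per length, the receptors of PSCs stood in the order Chrm3 (1.11 ± 1.21 RPKM), Chrm1 (0.329 ± 0.217 RPKM), Chrm2 (0.0225 ± 0.0424 RPKM) and Chrm5 (0.0125 ± 0.025 RPKM). Neither Chrm3 and Chrm1 nor Chrm2 and Chrm5 were apart by more than their SDs, and in PSC libraries 6, 31 and 36 Chrm3 was below Chrm1 per length. In S100β-GFP+ cells the order was Chrm3 (0.792 ± 0.418 RPKM), Chrm2 (0.311 ± 0.335 RPKM), Chrm1 (0.174 ± 0.205 RPKM) and Chrm5 (0.0257 ± 0.0728 RPKM), and the last 3 were not apart by more than their SDs. In NG2-dsRed+ cells Chrm3 was first at 1.43 ± 1.04 RPKM, and Chrm1, Chrm5 and Chrm2 lay at 0.0566, 0.0435 and 0.0298 RPKM, with SDs larger than the values. Receptor levels were therefore far below that of Bche in PSCs and, for Chrm3, of the same order as that of Ache in PSCs and NG2-dsRed+ cells.

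Of the 3 genes that passed the filter, Bche and Ache were higher in PSCs than in the S100β-GFP+ cells and none was lower. Among all 15330 genes tested, 22.9% were higher and 24.1% lower in that comparison. Against NG2-dsRed+ cells 1 of the 3, Bche, was higher in PSCs and none was lower, beside 20.9% and 23.1% of all genes. Between S100β-GFP+ and NG2-dsRed+ cells none was higher and Ache was lower, beside 18.1% and 15.2%. With 3 genes tested, these counts cannot be set apart from the shares of all genes.

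Of the genes for acetylcholinesterase anchors and for clustering of acetylcholine receptors, 9 of 10 were tested. In PSCs 6 were higher and none lower than in the S100β-GFP+ cells (median log2 difference 2.01, against 0.04 over all genes), and 6 were higher and 2 lower than in NG2-dsRed+ cells (median 1.25, against 0.02). Over all genes, 22.9% were higher and 24.1% lower in the first comparison, and 20.9% and 23.1% in the second. No list was tested as a set. Beside Prima1 the higher genes included Dag1, the gene for dystroglycan, at 2966 ± 495 CPM in PSCs, with differences of 3.40 (SE 0.17, adjusted p = 5.3e-15) and 3.03 (SE 0.16, adjusted p = 2.68e-15). Agrn, whose product agrin drives receptor clustering, stood at 296 ± 73.4 CPM in PSCs, 38.4 ± 27.5 CPM in the S100β-GFP+ group and 137 ± 24.9 CPM in NG2-dsRed+ cells. It was higher in PSCs by 2.95 (adjusted p = 1.23e-09) and 1.11 (adjusted p = 0.000628). The 2 genes lower in PSCs than in NG2-dsRed+ cells encode basal lamina proteins, Hspg2 (perlecan, to which ColQ binds), with a difference of -0.86 (adjusted p = 0.00916), and Lamb2 (a laminin chain), with one of -0.64 (adjusted p = 0.00178). Summed muscle fibre markers of up to 1801 CPM were present in PSCs, and their part in these values was not tested.

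Genes that make or load acetylcholine were near 0, as Chat had 0 counts in PSCs and NG2-dsRed+ cells and 8 in S100β-GFP+ cells. Of the list for acetylcholine synthesis, vesicle loading and choline transport, 5 of 10 were tested, and 3 were higher in PSCs than in the S100β-GFP+ cells and 2 than in NG2-dsRed+ cells, with none lower. The shares of all genes were 22.9% and 20.9% higher, and 24.1% and 23.1% lower. Slc44a1, a choline transporter of the plasma membrane, was at 467 ± 205 CPM in PSCs and was higher by 1.81 (adjusted p = 1.24e-08) and 2.23 (adjusted p = 7.1e-11). Slc44a3, of the same family, was higher by 1.82 and 2.55 (adjusted p = 0.000548 and 4.02e-06) at a mean of 4.44 ± 0.979 CPM. Slc44a2 was at 105 ± 57.3 CPM in PSCs, higher than in the S100β-GFP+ cells by 1.00 (adjusted p = 0.00471), with a difference of -0.04 (adjusted p = 0.914) from NG2-dsRed+ cells. Chka, a choline kinase, differed by 0.02 and 0.31 (adjusted p = 0.954 and 0.137).

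Of the 16 nicotinic receptor subunit genes, 4 were tested, with 2 higher in PSCs than in the S100β-GFP+ cells and 1 higher and 1 lower than in NG2-dsRed+ cells. Among all genes tested, 22.9% and 20.9% were higher and 24.1% and 23.1% lower in these 2 comparisons. Chrna4, a subunit best known from neurons, was at 4.91 ± 2.48 CPM in PSCs and was higher by 3.62 (SE 0.66, adjusted p = 4.11e-05) and 1.83 (SE 0.54, adjusted p = 0.00634). Chrna1, the α subunit of the muscle receptor, was higher in PSCs than in the S100β-GFP+ cells by 1.48 (adjusted p = 0.0417), a call that was lost when any 1 of 7 libraries was left out. Chrnb1, the β subunit of the muscle receptor, was highest in NG2-dsRed+ cells at 16.7 ± 4.63 CPM, and PSCs were lower, with a difference of -1.78 (adjusted p = 4.56e-05). The Ly6 proteins and chaperones of nicotinic receptors had 5 of 10 genes tested, 1 higher and 3 lower in PSCs in both comparisons. The one higher was Lypd6, at 39.4 ± 16.1 CPM in PSCs, by 4.34 (SE 0.36, adjusted p = 3.34e-11) and 4.95 (SE 0.34, adjusted p = 8.62e-13). Lynx1 was lower, with differences of -1.76 and -1.40 (adjusted p = 1.78e-06 and 3.19e-05), and so was Ly6e, with -1.51 and -2.67 (adjusted p = 3.14e-05 and 2.94e-09).

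Genes of both signalling arms downstream of the receptors were measured. Of the 14 tested genes of the Gq arm, used by M1, M3 and M5, 4 were higher and 5 lower in PSCs than in the S100β-GFP+ cells, and 5 higher and 7 lower than in NG2-dsRed+ cells. Over all genes the shares were 22.9% higher and 24.1% lower, and 20.9% and 23.1%. Kcnq5, a potassium channel subunit of the current that muscarinic receptors suppress, was higher in PSCs by 3.16 (SE 0.58, adjusted p = 4.98e-05) and 3.63 (SE 0.55, adjusted p = 2.99e-06). Plcb4, a phospholipase C, was lower, with differences of -1.38 and -2.80 (adjusted p = 0.000581 and 2.21e-08), the first of which was -0.41 (adjusted p = 0.172) without S100β-GFP+ libraries 14, 17 and 22. Itpr1, a calcium release channel, was lower than in NG2-dsRed+ cells, with a difference of -1.71 (adjusted p = 9.24e-10). Its difference of -0.43 (adjusted p = 0.0371) from S100β-GFP+ cells was lost under several settings. Rgs2, which limits Gq signalling, was higher than in NG2-dsRed+ cells by 1.13 (adjusted p = 0.00311). Gna15 and Plcb2, which are typical of blood cells, were lower in PSCs than in the S100β-GFP+ cells, with differences of -7.09 and -2.95 (adjusted p = 8.41e-09 and 0.00063), on 3 and 96 counts in PSCs, where macrophage and leukocyte markers summed to 34.8 to 571 CPM. Of the 9 tested genes of the Gi arm, used by M2 and M4, 2 were higher and 3 lower than in the S100β-GFP+ cells, and none was higher and 7 lower than in NG2-dsRed+ cells (median log2 difference -2.22, against 0.02 over all genes). The shares of all genes are those given for the Gq arm, and neither arm was tested as a set. Rgs5 and Rgs4, which limit Gi signalling, were lower than in NG2-dsRed+ cells, with differences of -6.00 and -5.16 (adjusted p = 3.44e-12 and 4.59e-10). Rgs5 is also a defining marker of pericytes. Gnai2, a Gi protein subunit, was lower in PSCs, with differences of -0.78 and -1.07 (adjusted p = 0.000167 and 1.06e-06). Of the 18 carboxylesterase genes related to the cholinesterases, 1 was tested, Ces2g, at 24.0 ± 8.61 CPM in S100β-GFP+ cells, 0.807 ± 0.765 CPM in NG2-dsRed+ cells and 6 counts in all of PSCs. It was lower in PSCs, with differences of -7.96 and -3.09 (adjusted p = 1.44e-10 and 0.000999). Ces2g passed the filter on low counts only through the S100β-GFP+ libraries, as did Gna15. Their lower values in PSCs than in those libraries were thus fixed by the filter, and Ces2g is not set against Bche.

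**Figure D4:**
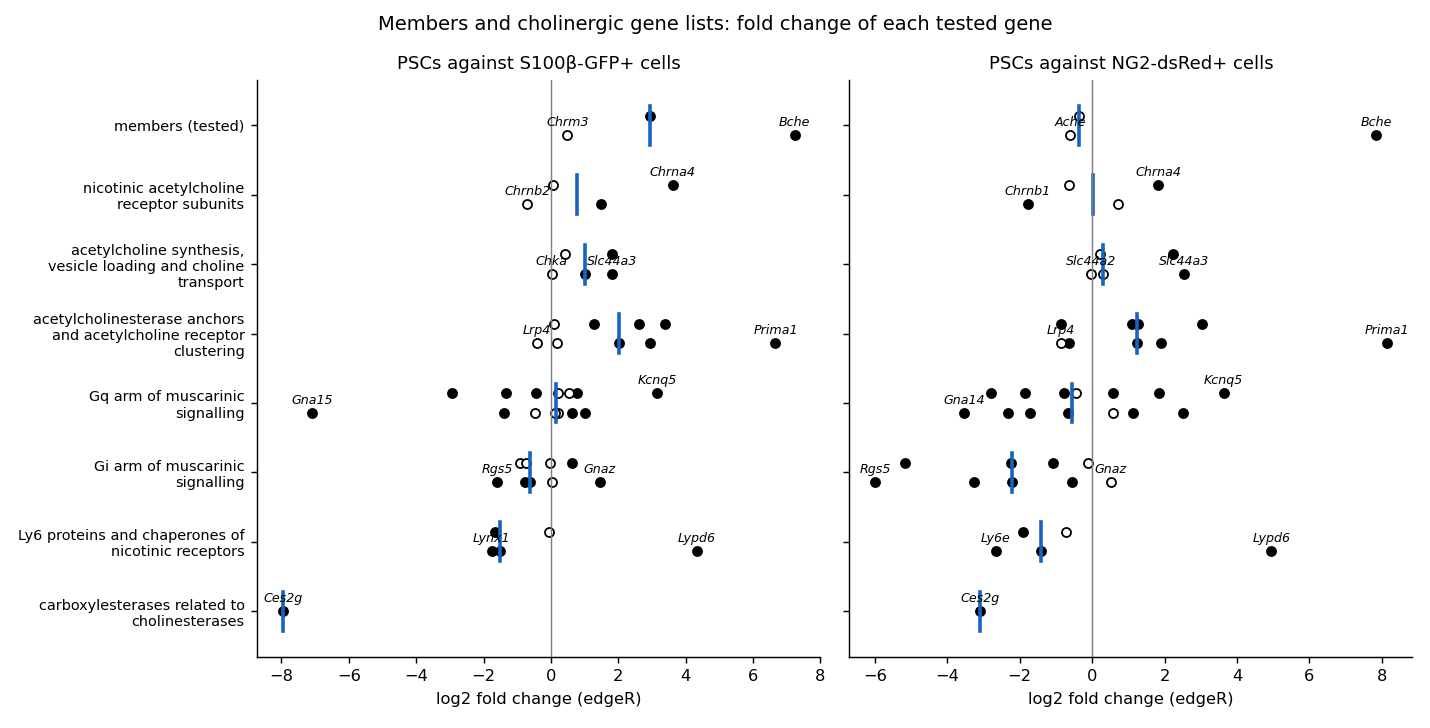
Log2 fold change (edgeR) of the 3 tested genes among the 7 and of each tested gene of the cholinergic lists, for PSCs against S100β-GFP+ cells (left) and against NG2-dsRed+ cells (right), with positive values higher in PSCs. Filled points have an adjusted p under 0.05, blue bars are medians and the lowest and highest gene of each row are named. Bche (7.24 and 7.84) and Prima1 (6.67 and 8.14) lie far to the right on both sides.

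The genes whose pattern over the 27 libraries was most like that of Bche, by the root mean square difference of centred log2 CPM, were Col20a1 (0.59), Unc80 (0.77) and Ptprz1 (0.79). Col20a1, a collagen gene, stood at 1599 ± 408 CPM in PSCs and at means of 8.68 and 6.81 CPM in the other cell types. For Ache they were Odf3l1 (0.61), Spry4 (0.62) and Pde1a (0.67), which had their highest means in NG2-dsRed+ cells, as Spry4 at 63.3 ± 23.9, 17.3 ± 12.0 and 143 ± 28.0 CPM in PSCs, in S100β-GFP+ and in NG2-dsRed+ cells. For Chrm3 the nearest genes were Clybl (0.99), Gm26703 (1.04) and Fam32a (1.05), at a greater distance than for the enzymes. In PSCs Clybl had 29.0, 31.4, 43.8, 20.8 and 28.9 CPM in libraries 4, 12, 18, 20 and 34, and 3.13, 4.54, 1.72 and 19.6 CPM in libraries 6, 23, 31 and 36, so that it was low in 3 of the 4 libraries with low Chrm3.

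Within PSCs, Bche and Ache were compared with the part of each library taken up by Lars2, Gm23935 and Gm15564, which ran from 3.64% to 36.6% between libraries. For Bche, Pearson's r was 0.27 (exact permutation test, p = 0.503) and Spearman's rho 0.52 (p = 0.162, n = 9, exact permutation test). For Ache, r was 0.28 (p = 0.505) and rho -0.15 (p = 0.708, exact permutation tests, n = 9). Each adjusted p was 0.744 over the 6 relations computed. Leaving out the 2 libraries farthest from the median share gave r of -0.07 and 0.37. For Bche r was 0.78 without library 18. Chrm3 fell into 2 clusters of 5 and 4 libraries, and no relation is given for it.

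The 250 bases before the RefSeq start of each enzyme gene were searched for motifs, since both enzymes differed between the cell types, in different orders. They are from RefSeq (GRCm38.p6), 5′ to 3′ on the gene's strand, with GC boxes (GGGCGG on either strand) in capitals. The Ache window lies inside the gene as GENCODE M21 gives it, which starts further upstream at 137287519, and its first 54 bases, which are in exons of other Ache transcripts, are not shown.
Bche: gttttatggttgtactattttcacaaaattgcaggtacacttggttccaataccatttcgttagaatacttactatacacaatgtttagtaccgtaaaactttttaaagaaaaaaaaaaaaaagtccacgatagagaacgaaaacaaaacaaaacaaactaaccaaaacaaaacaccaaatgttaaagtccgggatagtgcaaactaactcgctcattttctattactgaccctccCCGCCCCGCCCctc
Ache: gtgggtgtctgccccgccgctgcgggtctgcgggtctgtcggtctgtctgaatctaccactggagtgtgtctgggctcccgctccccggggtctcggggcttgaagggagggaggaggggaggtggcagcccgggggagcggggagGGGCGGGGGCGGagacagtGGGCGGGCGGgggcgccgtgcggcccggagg
The Bche window (chr3:73708416-73708665, minus strand) had a GC content of 35.6% and the Ache window (chr5:137288004-137288253, plus strand, shown from 137288058) one of 73.6%, against a median of 52.4% over 32851 such windows. Of those windows 5.41% had less GC than that of Bche, and 94.7% less than that of Ache. Bche had 2 GC boxes, which overlap by 1 base at its downstream end, and Ache had 4, of which 2 adjoin and 2 overlap. A GC box was present in 32.7% of all windows. The E-box CANNTG occurred 2 times in the Bche window and 1 time in that of Ache (66.2% of all windows held it). The exact letters ACAAAG, 1 of the sequences bound by SOX factors, occurred in neither on either strand (16.5% of all windows). Other sequences bound by SOX factors were not searched for. A match of letters is no measure of binding. The table held a window for 5 of the 7 genes.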

How the data were processed

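RNA of 27 libraries was analysed: 9 of PSCs, 8 of S100β-GFP+ cells and 10 of NG2-dsRed+ cells, of the 36 that the labels name. The other libraries were not analysed here. The design text of the series counts 7 S100β-GFP+ replicates without naming them. The study reports that it judged samples as failed from pairs plots and left them out. It kept 9 PSC, 7 S100β-GFP+ and 10 NG2-dsRed+ replicates. Which of the 8 S100β-GFP+ libraries analysed here it kept is not known. RNA was amplified with SMART-Seq v4. Reads had been trimmed by the authors (ea-utils, Btrim), mapped with HISAT2 and assigned to genes with HTSeq. The deposited values are raw counts per Ensembl gene in whole numbers. The submitters' processing notes name GRCm38. Tool versions, annotation and strand settings were not given by the sources used here. PCR copies cannot be told from molecules, so a floor of 3 counts covers counting error only. Symbols and positions came from GENCODE M21, which holds 99.56% of the identifiers.

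Depth was 5221655 to 9592875 counts per library. No replicate columns were identical (chi-square per degree of freedom at least 8.1). In R 4.3.3, edgeR 4.0.16 used TMM, filterByExpr (minimum count 10), quasi-likelihood tests from 1 fit with all 3 cell types, and a Benjamini-Hochberg threshold of 0.05. On simulated counts the fit recovered 79.6% of 4-fold and 40.6% of 2-fold changes against S100β-GFP+ cells, and 80.6% and 50.0% against NG2-dsRed+ cells (14947 genes). There 98 genes changed 4-fold and 96 changed 2-fold, in PSCs only and over all levels. Far more genes were called in the data, so these rates need not hold for the tests above. Genes under the filter had exact permutation tests. RPKM used the union of exons. Likeness used log2 CPM with a prior count of 2, for genes with a mean of at least 5 CPM in a cell type. Alternatives were DESeq2 1.42.0, its size factors, no filter, only the groups compared, limma-voom (3.58.1), the share of Lars2, Gm23935 and Gm15564 as a term, S100β-GFP+ libraries 14, 17 and 22 left out, each library left out, and the longest transcript as length. Of each list, the 3 genes with the highest mean and those with the largest called change are named. Chat and Chrm4 were named after their values were seen. The 7 genes and the lists were chosen with earlier results of these data known. The quantitative PCR and imaging were not analysed here.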

Additional observations from a re-analysis of the deposited data

Results flagged for a closer look

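Of the 21 sets of values formed by the 7 genes and 3 cell types, 6 held a library farther from the rest than Dixon's 95% limit allows. That limit is passed in about 1 in 20 sets only where values are normally distributed. The flagged sets of Chrm5 and Chrm2 held mostly values of 0, so the 6 are listed for a closer look and not set against that rate. PSC library 18 was the highest for Ache (17.3 CPM, next 9.76 CPM) and for Chrm3 (23.0 CPM, next 11.4 CPM). It was also the lowest for Bche (408 CPM), within the limit, and had a count on the fewest genes (14616). Without it the log2 difference of Ache between PSCs and NG2-dsRed+ cells was -0.70 (edgeR, adjusted p = 0.0427). PSC library 20 was the highest for Chrm2 (0.765 CPM, 8 counts, next 0.259 CPM). NG2-dsRed+ library 2 was the highest for Bche (9.22 CPM, 65 counts, next 5.78 CPM), which is 1 of the 10 libraries behind the difference of 7.84 from PSCs. That library also had the highest summed Schwann cell lineage markers of its group (113 CPM). Chrm5 had a single high library in S100β-GFP+ cells (library 22, 0.329 CPM, 2 counts, next 0 CPM) and in NG2-dsRed+ cells (library 30, 0.566 CPM, 4 counts, next 0.130 CPM), both on too few counts to read.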

How the results depend on the processing

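Bche in PSCs kept its direction and call in each alternative run, with a log2 difference of 7.11 to 7.57 against S100β-GFP+ cells and 7.75 to 8.09 against NG2-dsRed+ cells when single libraries were left out. Ache between PSCs and NG2-dsRed+ cells passed the test with limma-voom (-1.0) and lay between -0.70 and -0.42 with single libraries left out. No paired analysis was possible, because each library has its own number and the labels do not name its mouse. Whether libraries of different groups came from the same mouse is not known here. Genes under the filter entered some fits and moved the counts of called genes. Against S100β-GFP+ cells 1 of the 7, Chrm2, was lower in PSCs with DESeq2 and with no filter. Against NG2-dsRed+ cells 2, Bche and Chrm1, were higher with DESeq2, with no filter and without S100β-GFP+ libraries 14, 17 and 22 (1 to 2 with single libraries left out), and 1, Ache, was lower with limma-voom (0 to 1). Between S100β-GFP+ and NG2-dsRed+ cells 1, Chrm2, was higher with DESeq2 and with no filter. With single libraries left out, the difference of mean CPM between PSCs and S100β-GFP+ cells ran from 0.179 to 0.459 for Colq, with an exact p of 0.0433 without S100β-GFP+ library 22, and from 0.729 to 1.40 for Chrm1. For Chrm1 between S100β-GFP+ and NG2-dsRed+ cells it ran from 0.361 to 0.926. Without libraries 14, 17 and 22, PSCs and S100β-GFP+ cells differed by 0.468 CPM for Colq (exact p = 0.0909). For Chrm1 they differed by 1.34 CPM (exact p = 0.0754). Of the 3 genes most like Ache, 1 remained without libraries 14, 17 and 22. Rgs4 in PSCs against S100β-GFP+ cells turned from -0.75 to 0.89 (adjusted p = 0.0213) without those 3 libraries and was 0.01 with limma-voom. Chrnb1 in the same comparison went from 0.05 to 1.07 (adjusted p = 0.00581) without those 3 libraries and so gained a call. Over all genes, those lower in PSCs than in the S100β-GFP+ group numbered 3687 of 15330 with the filter. They numbered 12649 of 44705 without it and 5584 of 25634 with DESeq2. Higher in PSCs than in NG2-dsRed+ cells were 3751 of 44705 without the filter and 4140 of 23900 with DESeq2. Without S100β-GFP+ libraries 14, 17 and 22 they were 3549 of 16216, and 4525 of 15330 were lower with limma-voom. Between S100β-GFP+ and NG2-dsRed+ cells 2771 of 15330 genes were higher with the filter. Without it 8194 of 44705 were, and 4194 of 24767 with DESeq2. In that comparison 2328 were lower with the filter, against 3511 with limma-voom. With 7 genes, the counts of called genes above cannot be set apart from these shares. The causes of the changes between settings were not tested. Some differences that passed no test changed sign. Without libraries 14, 17 and 22, S100β-GFP+ against NG2-dsRed+ cells gave -0.12 for Bche, -0.47 for Kcnq5 (-0.17 with limma-voom) and -0.00814 CPM for Colq, and PSCs against S100β-GFP+ cells gave 0.02 CPM for Chrm5. Chrm3 in PSCs against S100β-GFP+ cells was -0.05 with limma-voom and -0.14 with the share of Lars2, Gm23935 and Gm15564 as a term, under which Chka was -0.07 and Slc44a2 in PSCs against NG2-dsRed+ cells 0.30. With single libraries left out, log2 differences ran from -0.09 to 0.45 (Chrnb1), -0.02 to 0.13 (Chka) and -0.10 to 0.21 (Hspg2) against S100β-GFP+ cells, from -0.16 to 0.10 (Slc44a2) against NG2-dsRed+ cells, and from -0.01 to 0.71 (Kcnq5) between S100β-GFP+ and NG2-dsRed+ cells. Differences of mean CPM ran from -0.123 to 0.00655 for Chrm2 (PSCs against NG2-dsRed+ cells) and, for Chrm5, from -0.0313 to 0.02, from -0.0597 to 0.00552 and from -0.0696 to 0.0267 in the 3 comparisons. Of the other values that answer a comparison, 732 kept direction and call. For the other named genes 2467 values did so, 27 gained a call under an alternative, 42 lost one and 27 changed sign, 1 of them with a call. Genes at a few CPM rest on few counts, and a difference in Chrm5 was not detectable at this depth.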
